A study of Mus musculus with 76 samples.

Results

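The comparison described here sets embryos whose mother and father had both been exposed to α-cypermethrin at the dose labelled 0.3 (Both_0.3Cyp) against embryos of parents that had both received vehicle (Ctrl). The samples were taken by these labels, and they are 24 of the 76 libraries of the series, 12 in each group. α-Cypermethrin is a pyrethroid insecticide, a class that acts on voltage-gated sodium channels of nerve cells. The animals were C57BL/6J mice. By the labels' protocol each parent was dosed over 28 days, beginning with 7 days of treatment followed by 3 cycles of 2 days off and 5 days on, and the animals were paired when dosing had ended. RNA came from the dorsal forebrain, the tissue that holds the developing cortex, at embryonic day 16. The unit of the dose, the litter of an embryo and the dates of collection are not given in the labels, so littermates may be counted as separate samples. The p-values rest on the spread between libraries, estimated across all 76 libraries of the series, and not on a spread between litters.

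At this age radial glia, the stem cells that line the ventricle, divide to give intermediate progenitors, which divide again to give the neurons of the upper cortical layers. Neurons already born extend axons and raise the expression of ion channels, transmitter receptors and synaptic proteins, while precursors of oligodendrocytes and astrocytes begin to appear. A sample of whole tissue mixes all of these cells, so that a lower level of a gene in it can come from fewer cells of a type or from less RNA per cell, which cannot be told apart here.

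Each group held 3 female and 3 male embryos in batch 1 and 2 female and 4 male embryos in batch 2. Library totals ran from 17930254 to 19861390 counts in Ctrl and from 17773173 to 19762453 in Both_0.3Cyp. Y-linked transcripts summed to 0 to 2.00 CPM (counts scaled to the library total) in the 10 female libraries and to 85.1 to 99.9 in the 14 male ones, as labelled. One Ctrl library, replicate 3, held 315 CPM of diencephalon marker genes, where the other Ctrl libraries held 50.4 to 90.2 and the exposed ones 51.1 to 117. The labelled tissue was checked on its cell markers: the cortical neuron gene Tbr1 lay from 269 to 426 CPM in Ctrl (median 352) and from 307 to 397 in Both_0.3Cyp (median 347). CPM of single genes were also normalised by TMM.

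Exposed embryos had higher levels of genes of DNA replication, cell division, intermediate progenitors, ribosomes and the proteasome. They had lower levels of genes of synapses, ion channels, calcium signalling and oligodendrocyte precursors. Of 14339 genes tested, 3202 (22.3% of those tested) were called at an adjusted p under 0.05 (edgeR quasi-likelihood), 1509 higher (10.5%) and 1693 lower (11.8%). The changes were small: the median fold among genes called higher was 1.16, and the median fall among genes called lower was 1.22-fold. An absolute log2 fold change of 0.5 was reached by 50 genes called higher and 256 called lower. The groups of 12 did not overlap for 4 genes (0.0279% of those tested), while 2623 genes (18.3%) had all 12 exposed libraries on one side of the Ctrl mean. Changes of single genes are given below as log2 fold changes with their standard errors, and a median of a list is that of the log2 fold changes of its tested members, whether called or not.

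**Figure D1:**
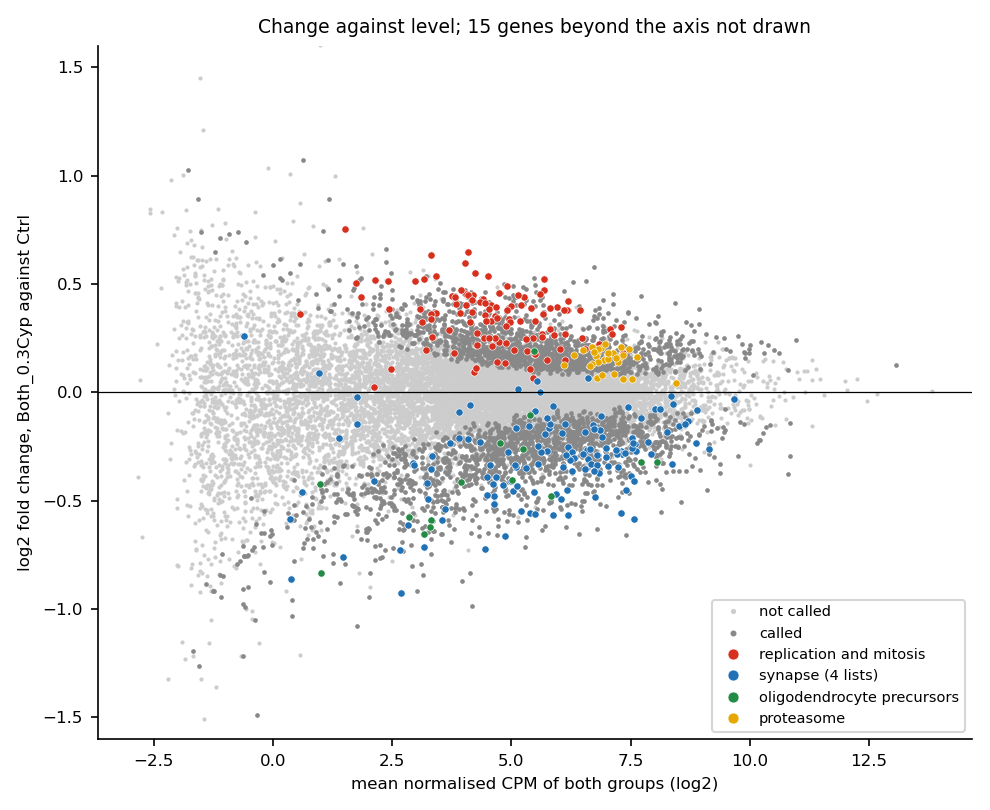
Log2 fold change of Both_0.3Cyp against Ctrl (vertical axis) against the mean normalised CPM of both groups on a log2 scale (horizontal axis) for the genes tested, with genes called in dark grey, others in light grey, and members of 4 kinds of gene list in colour. Replication and mitosis genes (red) lie above 0 and most synapse genes (blue, from 4 lists) below it, while proteasome genes (yellow) form a narrow band close to 0.16; 15 genes beyond ±1.6 are not drawn.

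Genes of DNA replication and mitosis were the groups with the largest share of members called higher. Of the genes on the replication list, which covers the helicase, the polymerases, their loading factors and the enzymes that supply nucleotides, 37 of 52 rose and 0 fell, and the median log2 fold change of the tested members was 0.29, where the median over all genes tested was -0.0017. Of the genes on the mitosis and kinetochore list 43 of 56 rose and 0 fell, with a median of 0.39. All 108 tested members of both lists had a positive log2 fold change. Within batches the medians were 0.16 in batch 1 and 0.42 in batch 2 for replication, and 0.21 in batch 1 and 0.60 in batch 2 for mitosis.

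Promoters of these genes carry known cell-cycle elements, and promoters of members from both lists are shown so that the elements can be seen beside the values. In each window of 300 bases around the annotated start (RefSeq, GRCm38.p6, 5′ to 3′ on the gene's strand) the matches are in capitals, searched on both strands: CCAAT, the box bound by NF-Y; TTTNNCGC, a core of E2F sites; TTTGAA, the cell cycle homology region; and TGACG, the core of the cyclic AMP response element, which also lies within its full form TGACGTCA.
Mcm5 (chr8:75109259-75109558, plus strand): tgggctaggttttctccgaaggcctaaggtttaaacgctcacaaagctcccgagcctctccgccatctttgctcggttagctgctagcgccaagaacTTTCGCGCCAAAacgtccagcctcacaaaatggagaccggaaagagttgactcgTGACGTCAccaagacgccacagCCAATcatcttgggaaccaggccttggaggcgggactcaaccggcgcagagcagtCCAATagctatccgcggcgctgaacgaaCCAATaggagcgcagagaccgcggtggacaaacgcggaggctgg
Cks2 (chr13:51644982-51645281, plus strand): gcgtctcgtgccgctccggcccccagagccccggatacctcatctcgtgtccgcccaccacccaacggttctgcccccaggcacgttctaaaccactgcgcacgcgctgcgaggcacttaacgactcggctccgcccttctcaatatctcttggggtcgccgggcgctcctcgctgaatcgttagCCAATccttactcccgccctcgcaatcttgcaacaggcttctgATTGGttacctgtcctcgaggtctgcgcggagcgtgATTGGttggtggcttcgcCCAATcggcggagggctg
Cenpn (chr8:116921490-116921789, plus strand): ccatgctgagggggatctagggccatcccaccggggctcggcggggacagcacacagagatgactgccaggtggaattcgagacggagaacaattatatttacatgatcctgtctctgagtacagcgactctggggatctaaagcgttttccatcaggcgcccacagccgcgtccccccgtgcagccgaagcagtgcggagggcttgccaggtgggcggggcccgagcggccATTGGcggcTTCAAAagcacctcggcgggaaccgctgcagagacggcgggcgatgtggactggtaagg
The Mcm5 window holds 3 CCAAT boxes and 2 overlapping TTTNNCGC matches, the Cks2 window 4 CCAAT boxes, and the Cenpn window 1 CCAAT box close to 1 TTTGAA match. These genes were picked among called members because their windows hold a match: TTTNNCGC for Mcm5, CCAAT for Cks2 and TTTGAA for Cenpn. Their windows therefore do not show how common a match is. CCAAT was found in 72.3% of the 47 mitosis promoters and 58.5% of the 41 replication promoters with a sequence, against 38.6% of 11163 promoters of genes tested. TTTGAA was found in 70.2% of mitosis promoters (11.5% of all) and TTTNNCGC in 34.2% of replication promoters (8.39% of all). Among all genes called higher the shares were 45.9% for CCAAT, 15.7% for TTTGAA and 12.1% for TTTNNCGC, and among those called lower 33.4%, 9.03% and 5.89%. A match describes the letters of the window and does not show that a factor binds there.

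Mcm5, a subunit of the replicative helicase, lay from 42.8 to 77.5 CPM in Ctrl (median 50.4) and from 60.4 to 87.4 in Both_0.3Cyp (median 68.8). All 12 exposed libraries were above the Ctrl median, and of the Ctrl libraries replicates 5 and 6, both of batch 1, reached the exposed range. Its log2 fold change was 0.39 ± 0.11 (SE; edgeR quasi-likelihood adjusted p = 0.00990). Tk1, the thymidine salvage kinase of S phase, ranged from 9.40 to 22.1 CPM in Ctrl (median 12.04) and from 15.9 to 26.8 in Both_0.3Cyp (median 20.7). In batch 2 the groups did not overlap for Tk1, while in batch 1 Ctrl replicates 5 and 6 lay among the exposed libraries. Dscc1, which helps to load the clamp PCNA and to join sister chromatids, lay from 1.29 to 3.06 CPM in Ctrl (median 2.14) and from 2.81 to 4.80 in Both_0.3Cyp (median 3.44). For Dscc1 10 of 12 exposed libraries were above every Ctrl library, and the groups did not overlap within either batch. It had the largest change of the list, 0.75 ± 0.15 (edgeR quasi-likelihood adjusted p = 0.00505), and Gmnn, the inhibitor of replication licensing, rose by 0.64 ± 0.15. Smaller rises were measured for Rfc4 (0.45), a clamp loader subunit, and for Pcna, the sliding clamp (0.29).

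Cks2, a cofactor of the mitotic cyclin-dependent kinases, was measured from 7.75 to 22.7 CPM in Ctrl (median 13.03) and from 16.2 to 24.1 in Both_0.3Cyp (median 19.1). Ctrl replicate 6 alone reached the exposed range. The log2 fold change of Cks2 was 0.59 ± 0.13 (edgeR quasi-likelihood adjusted p = 0.00565), with 0.42 in batch 1 and 0.80 in batch 2. Cenpn, a kinetochore protein that reads the centromeric nucleosome, lay from 4.50 to 9.20 CPM in Ctrl (median 6.33) and from 8.16 to 10.99 in Both_0.3Cyp (median 9.15). In batch 2 the lowest exposed library was above the highest Ctrl library. Other mitotic genes that rose were the cyclin Ccnb2 (0.54), the kinase Cdk1 (0.44), the centromeric histone Cenpa (0.49), the kinetochore subunits Ndc80 (0.54) and Spc25 (0.55), and Birc5 (0.47), of the chromosomal passenger complex. Mki67, the proliferation antigen, is on the same list and was not called: it lay from 56.4 to 127 CPM in Ctrl (median 84.5) and from 70.95 to 144 in Both_0.3Cyp (median 96.7), with a log2 fold change of 0.20 ± 0.14 (edgeR quasi-likelihood adjusted p = 0.307; named after its values were seen).

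On the list of homologous recombination and crosslink repair 9 of 30 rose and 0 fell, with a median of 0.23. Eme1, a subunit of a structure-specific nuclease, had medians of 3.75 CPM in Ctrl and 6.51 in Both_0.3Cyp and rose by 0.66 ± 0.14. Brca1, which acts in recombination repair, rose by 0.37 ± 0.12. Among replication-dependent histone genes 4 of 30 rose, Hist1h4i (0.55), Hist3h2a (0.21), Hist3h2ba (0.24) and Hist2h2aa1 (1.07). This share of 13.3% was near the 10.5% of all genes tested that were called higher. The histone list had a median of 0.23, with 28 of 30 members positive. Hist2h2aa1 has a near-identical neighbouring copy, so its count is uncertain, and 10 of 12 Ctrl libraries lay within its exposed range.

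Calls on the intermediate progenitor and proneural list were all higher, whereas radial glial genes were called in both directions. On the intermediate progenitor list 10 of 20 rose and 0 fell, with a median of 0.32 (0.26 in batch 1 and 0.40 in batch 2). Eomes, the transcription factor that marks intermediate progenitors, lay from 49.8 to 174 CPM in Ctrl (median 100.3) and from 122 to 154 in Both_0.3Cyp (median 142). Exposed libraries kept to a narrow band, while Ctrl replicates 5 and 6 were the highest of all 24 and the other 10 Ctrl libraries were below the exposed range. Its log2 fold change was 0.43 ± 0.15 (edgeR quasi-likelihood adjusted p = 0.0299), and the call was lost without Ctrl replicate 3 (0.36, adjusted p = 0.0690), 7 (0.39, adjusted p = 0.0585) or 8 (0.40, adjusted p = 0.0523). Genes tied to the Notch pathway were among the members that rose: Mfng, a glycosyltransferase that modifies Notch (0.49), the ligand Dll3 (0.32) and Hes6 (0.24). The antiproliferative gene Btg2, switched on in progenitors about to form neurons, rose by 0.42 ± 0.11, the proneural factor Neurod4 by 0.53 ± 0.15 and the zinc finger factor Insm1 by 0.32 ± 0.11.

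Of the radial glial genes 5 of 22 rose and 3 fell, with a median of 0.080. Pax6, a master regulator of cortical progenitors, was measured from 27.99 to 61.4 CPM in Ctrl (median 35.3) and from 44.8 to 59.8 in Both_0.3Cyp (median 50.2). In batch 2 every exposed library exceeded every Ctrl library. Pax6 rose by 0.40 ± 0.10 (edgeR quasi-likelihood adjusted p = 0.00806), Hes1, the effector of Notch, by 0.43 ± 0.13, Sox2 by 0.23 ± 0.071, the intermediate filament Vim by 0.31 ± 0.10 and the membrane glycoprotein Pdpn by 0.33 ± 0.070. The members that fell are also expressed by outer radial glia and young astrocytes: the matrix protein Tnc (-0.52 ± 0.15), the phosphatase receptor Ptprz1 (-0.32 ± 0.10) and the glutamate transporter Slc1a3 (-0.18 ± 0.055). Genes that decline as progenitors age formed a short list, of which 3 of 12 rose. Hmga2, a chromatin protein of young progenitors, lay from 0.671 to 3.87 CPM in Ctrl (median 1.29) and from 1.67 to 4.43 in Both_0.3Cyp (median 2.83), and Ctrl replicates 1, 5 and 6 reached the exposed range. It rose by 0.89 ± 0.30, a call lost without Ctrl replicate 3 (0.84, adjusted p = 0.0521, edgeR). Beside it rose its relative Hmga1 by 0.18 ± 0.054 and the transcription factor Dmrta2 by 0.42 ± 0.15.

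**Figure D2:**
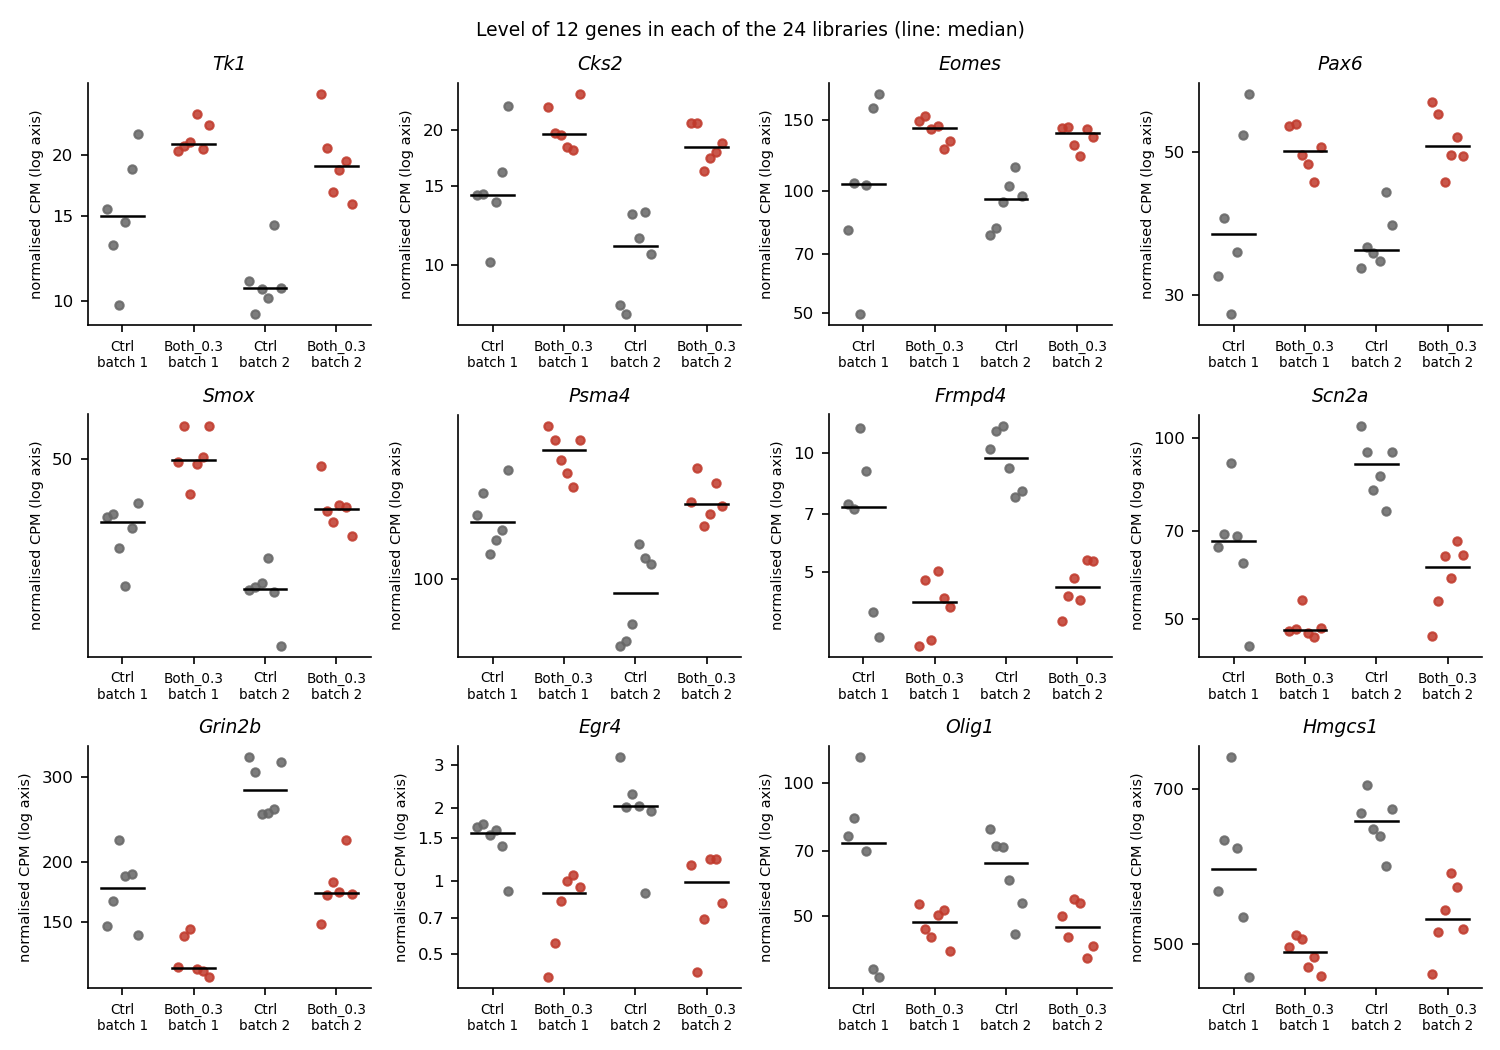
Normalised CPM (log axis) of 12 genes in each of the 24 libraries, by batch, with Ctrl in grey, Both_0.3Cyp in red and the median as a line. In batch 2 the groups separate for Tk1, Cks2, Pax6, Frmpd4, Scn2a and others, while in batch 1 Ctrl replicates 5 and 6, the last 2 grey points, lie among the exposed libraries for most of them.

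Most genes that define classes of cortical neurons were not called. On the upper-layer list 5 of 20 fell and 0 rose (median -0.11), and on the deep-layer and subplate list 8 of 26 fell and 1 rose (median -0.14). Mef2c, an activity-regulated transcription factor, had medians of 347 CPM in Ctrl and 244 in Both_0.3Cyp and fell with a log2 fold change of -0.44 ± 0.13. Nr4a2, expressed in the subplate and deep layers, fell with a log2 fold change of -0.45 ± 0.099, beside the layer 5 factor Etv1 (-0.28), the layer 6 genes Foxp2 (-0.23) and Tle4 (-0.13), and the ligand Kitl (-0.24), while Tmem178 rose (0.27). The layer-defining genes Bcl11b (-0.14 ± 0.077) and Tbr1 (-0.015 ± 0.084) were not called (edgeR quasi-likelihood adjusted p = 0.163 and 0.916; named after their values were seen).

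Markers of neighbouring territories were measured on the same libraries. On the striatal list 8 of 16 fell, among them the dopamine receptors Drd2 (-0.52 ± 0.13) and Drd1 (-0.43 ± 0.11), the opioid precursor Penk (-0.59 ± 0.17) and the transcription factor Foxp1 (-0.31 ± 0.091), which cortical neurons express as well. On the interneuron list 2 of 25 rose, the homeobox gene Dlx1 (0.21) and the chemokine receptor Ackr3 (0.22). This share of 8% was below the 10.5% of all genes tested that were called higher. The interneuron median was -0.019, with 13 of 25 members negative. The Cajal-Retzius list had 1 of 12 called, Emx2 (0.35), a gene also expressed by cortical progenitors. This was 8.33% of the list, where 10.5% of all genes tested were called higher. The list median was -0.21, with 7 of 12 members negative. From the cortical hem and hippocampus list 2 of 19 fell, the potassium channel gene Kcnk9 (-0.79) and the Wnt agonist Rspo2 (-0.35). That is 10.5%, where 11.8% of all genes tested were called lower. The median of this list was 0.067, with 14 of 19 members positive. The diencephalon list had a median of -0.73 with 1 of 15 called, Foxb1 (-2.46 ± 0.59), whose Ctrl libraries ran up to 7.61 CPM in replicate 3 around a median of 0.343. Without the libraries high in diencephalon markers, among them Ctrl replicate 3, the list median was 0.062 and Foxb1 stood at -1.50 (edgeR quasi-likelihood adjusted p = 0.0225). Without Ctrl replicate 3 alone Foxb1 was no longer called (-1.41, adjusted p = 0.0647, edgeR).

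Synaptic genes were lower in exposed embryos on both sides of the synapse. On the list of presynaptic vesicle release 28 of 40 fell and 0 rose (median -0.27; -0.23 in batch 1 and -0.33 in batch 2), and on the list of synaptic adhesion and postsynaptic scaffold 32 of 44 fell and 0 rose (median -0.28; -0.23 in batch 1 and -0.31 in batch 2). The summed level of the adhesion and scaffold genes lay from 4973 to 6587 CPM in Ctrl (median 5881) and from 4739 to 5612 in Both_0.3Cyp (median 4947). Within batch 1 it was 4739 to 4970 in exposed and 4973 to 5978 in Ctrl libraries, and within batch 2 it was 4923 to 5612 against 5784 to 6587, so the groups did not overlap within either batch. Across single genes 88 of those tested (0.614%) were separated in this way in both batches and in one direction, and 4 of the 44 members were among them.

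Frmpd4, a postsynaptic scaffold that binds PSD-95, lay from 3.44 to 11.7 CPM in Ctrl (median 8.52) and from 3.26 to 5.35 in Both_0.3Cyp (median 4.33). In batch 2 every exposed library was below every Ctrl library, and in batch 1 Ctrl replicates 5 and 6 lay at the exposed level. It had the largest fall among the adhesion and scaffold genes, -0.93 ± 0.17 (edgeR quasi-likelihood adjusted p = 0.00264). Nlgn3, a neuroligin that binds neurexins across the cleft, ranged from 103 to 144 CPM in Ctrl (median 127) and from 89.3 to 118 in Both_0.3Cyp (median 97.6). Exposed libraries were below all Ctrl libraries of their own batch. The log2 fold change of Nlgn3 was -0.29 ± 0.056, and its partners Nrxn2 (-0.26) and Nrxn3 (-0.35) fell too. Scaffold genes that fell included Dlg2 (-0.56), Shank1 (-0.28), Shank2 (-0.30) and Shank3 (-0.31). On the presynaptic side the calcium sensor Syt1 lay from 157 to 275 CPM in Ctrl (median 217) and from 142 to 204 in Both_0.3Cyp (median 159.8). All exposed libraries were below the Ctrl median, and Ctrl replicates 1, 2, 5 and 6 reached the exposed range. Syt1 fell with a log2 fold change of -0.41 ± 0.10, the vesicle phosphoprotein Syn1 with -0.34 ± 0.090 and the active zone protein Rims1 with -0.43 ± 0.12.

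Receptors for both fast transmitters were lower. Of the ionotropic glutamate receptor genes and their auxiliary subunits 16 of 25 fell (median -0.35), and of the GABA and glycine receptor genes and their partners 15 of 24 fell (median -0.29), with 0 higher on both lists. Grin2b, the NMDA receptor subunit that prevails before birth, lay from 141 to 329.5 CPM in Ctrl (median 236) and from 115 to 222 in Both_0.3Cyp (median 147). Each exposed library was below the Ctrl median, and the groups were apart in batch 2 but not in batch 1. It fell with a log2 fold change of -0.58 ± 0.16 (edgeR quasi-likelihood adjusted p = 0.0103), the AMPA receptor subunit Gria2 with -0.45 ± 0.11 and the obligatory NMDA subunit Grin1 with -0.45 ± 0.13. Among GABA receptor subunits Gabrb1 fell with a log2 fold change of -0.72 ± 0.16. Slc12a5, the chloride extruder that makes GABA inhibitory as neurons mature, fell with a log2 fold change of -0.57 ± 0.18.

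Voltage-gated sodium channels, the target class of pyrethroids, were lower in 7 of 12 tested members with 0 higher (median -0.36; -0.45 in batch 1 and -0.41 in batch 2). Scn2a, the main sodium channel of embryonic cortical neurons, ranged from 45.1 to 105 CPM in Ctrl (median 78.9) and from 46.6 to 67.5 in Both_0.3Cyp (median 50.9). Exposed libraries all lay below the Ctrl mean, and Ctrl replicates 1, 5 and 6 reached the exposed range. It fell with a log2 fold change of -0.54 ± 0.14 (edgeR quasi-likelihood adjusted p = 0.00786), Scn8a with -0.33 ± 0.089 and Scn1a with -0.52 ± 0.18. Falls were measured for 12 of 21 calcium channel genes (median -0.27), led by the T-type channel Cacna1i (-0.55 ± 0.13), with the P/Q-type channel Cacna1a at -0.37 ± 0.093. They were measured for 22 of 45 potassium channel genes (median -0.31), among them the inward rectifier Kcnj2 (-0.73 ± 0.17) and Kcna4 (-0.65 ± 0.17). The largest share among lists of neuronal genes was that of calcium and Ras signalling, with 22 of 28 lower and a median of -0.37. Rasgrf2, which activates Ras when calcium rises, had medians of 9.85 CPM in Ctrl and 5.34 in Both_0.3Cyp, the tyrosine kinase Ptk2b 20.7 CPM in Ctrl and 10.96 in Both_0.3Cyp, and the kinase Camk4 13.1 CPM in Ctrl and 9.85 in Both_0.3Cyp. All 3 lay below the Ctrl mean in 12 of 12 exposed libraries. Rasgrf2 and Ptk2b were known from earlier results of these same samples as recurrently lowered genes. Their falls are therefore not independent evidence of a direction.

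Immediate early genes, which neurons switch on when they fire, were lower in 9 of 24 tested members and higher in 1 (median -0.23). Their summed level, to which the members of highest level add most, had a higher median, from 1022 to 1180 CPM in Ctrl (median 1110) and from 1057 to 1218 in Both_0.3Cyp (median 1129), with 9 of 12 exposed libraries above the Ctrl median. Egr4 lay from 0.890 to 3.25 CPM in Ctrl (median 1.69) and from 0.400 to 1.23 in Both_0.3Cyp (median 0.888). Exposed libraries were below the Ctrl mean in 12 of 12 cases, and Ctrl replicates 6 and 11 reached the exposed range. Its log2 fold change was -1.03 ± 0.28 (edgeR quasi-likelihood adjusted p = 0.00971), and its promoter is shown for its 2 matches to the core of the cyclic AMP response element, an element of many activity-driven genes.
Egr4 (chr6:85513540-85513839, minus strand): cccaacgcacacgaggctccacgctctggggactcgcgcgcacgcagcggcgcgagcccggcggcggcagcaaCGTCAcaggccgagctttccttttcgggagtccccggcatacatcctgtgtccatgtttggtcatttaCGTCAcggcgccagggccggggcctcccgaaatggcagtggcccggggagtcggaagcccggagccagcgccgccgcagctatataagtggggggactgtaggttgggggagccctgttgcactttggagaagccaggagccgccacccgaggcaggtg
TGACG was found in 58.8% of the 17 promoters of the list with a sequence and in 30.9% of all promoters. Its share was 36.1% among all genes called higher and 26.45% among those called lower. The full form TGACGTCA was found in 5.88% of the 17 promoters and in 3.20% of all. Egr3 fell with a log2 fold change of -0.46 ± 0.12, Fos with -0.68 ± 0.22, Npas4 with -0.71 ± 0.23 and Junb with -0.34 ± 0.094. The neuropeptide precursor Vgf, also driven by activity, had medians of 26.9 CPM in Ctrl and 18.8 in Both_0.3Cyp and fell with a log2 fold change of -0.66 ± 0.19. Ier5, a growth-factor responsive gene, rose by 0.33 ± 0.11, and Ctrl replicates 5 and 6 were the Ctrl libraries within its exposed range.

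Markers of oligodendrocyte precursors, the cells that later make myelin, were lower. Of their marker genes 11 of 15 fell and 0 rose (median -0.42; -0.36 in batch 1 and -0.43 in batch 2), and the summed level lay from 614 to 1008 CPM in Ctrl (median 839.7) and from 593 to 786 in Both_0.3Cyp (median 673). Olig1, a transcription factor of the lineage, was measured from 36.2 to 115 CPM in Ctrl (median 70.9) and from 40.1 to 54.5 in Both_0.3Cyp (median 48.3). Exposed libraries were all below the Ctrl median, and Ctrl replicates 5, 6, 11 and 12 reached their range. Olig1 fell with a log2 fold change of -0.48 ± 0.16, a call lost without Ctrl replicate 3 (-0.38, adjusted p = 0.0925, edgeR) or 7 (-0.44, adjusted p = 0.0597). Other members fell as well, the growth factor receptor Pdgfra with -0.40 ± 0.14, the proteoglycan Cspg4 with -0.59 ± 0.15, Sox10 with -0.58 ± 0.17 and Gpr17, a receptor of committed precursors, with -0.62 ± 0.18. Olig2 was not called (-0.23 ± 0.10; edgeR quasi-likelihood adjusted p = 0.0880; named after its values were seen). On the early astrocyte list 7 of 22 fell and 0 rose (median -0.20). Aqp4, the water channel of astrocytes, lay from 1.70 to 7.61 CPM in Ctrl (median 4.40) and from 1.42 to 3.12 in Both_0.3Cyp (median 2.04), and it fell with a log2 fold change of -1.08 ± 0.27, beside the filament gene Gfap (-0.83 ± 0.29) and the glutamate transporter Slc1a2 (-0.29 ± 0.11).

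Markers of cells that enter a dissection with the cortex showed few calls. The lists of microglia and macrophages, meninges and choroid plexus had 0 members called by edgeR quasi-likelihood out of 19, 18 and 14 tested (at an unadjusted p under 0.05, 2, 0 and 0; by DESeq2, 0, 0 and 0 at an adjusted p under 0.05). Medians of the meningeal list were 0.44 in batch 1 and -0.33 in batch 2, and of the choroid plexus list 0.73 in batch 1 and -0.35 in batch 2, opposite in sign between batches. Endothelial genes had 2 of 20 called lower (10%), the receptor Flt1 (-0.49) and the peptide Edn1 (-0.78), and the pericyte list 1 of 14 (7.14%), Atp13a5 (-0.96). Both shares were below the 11.8% of all genes tested that were called lower. The endothelial median was 0.0077, with 11 of 20 members positive, and the pericyte median was -0.037, with 10 of 14 negative. On the list of adult erythroid genes 2 of 9 rose, among them the globin gene Hba-a2 (0.28). Hba-a2 and Hba-a1 are near-identical copies, so reads may be split between them.

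Genes for protein synthesis and breakdown rose by small amounts. Of the cytosolic ribosomal protein genes 39 of 81 rose and 0 fell (median 0.19; 0.18 in batch 1 and 0.19 in batch 2), of the mitochondrial ones 27 of 77 rose (median 0.15), and of the proteasome genes 19 of 31 rose (median 0.16; 0.12 in batch 1 and 0.20 in batch 2). In a fit of batch 2 alone 0 of 81 cytosolic ribosomal and 1 of 31 proteasome genes were called (edgeR quasi-likelihood, 11 and 14 at an unadjusted p under 0.05). In batch 1 alone 0 and 0 were called (69 and 20 unadjusted). The summed level of the ribosomal list was 28300 to 35430 CPM in Ctrl and 36060 to 39170 in exposed libraries of batch 1, and 26280 to 32550 against 32680 to 34660 in batch 2. For the proteasome it was 3974 to 4421 against 4433 to 4705 in batch 1, and 3600 to 3938 against 4066 to 4550 in batch 2. These lists and that of synaptic adhesion are the 3 of 49 whose summed level did not overlap between groups within either batch; Ctrl replicates 5 and 6 were below the exposed libraries of their batch here, unlike for the cell-cycle lists. Psma4, a subunit of the catalytic core, lay from 89.9 to 119 CPM in Ctrl (median 105) and from 109 to 128 in Both_0.3Cyp (median 118) and rose by 0.18 ± 0.053 (edgeR quasi-likelihood adjusted p = 0.0140). Psmc5, an ATPase of the regulatory particle, rose by 0.20 ± 0.062, the ribosomal protein gene Rps23 by 0.26 ± 0.072 and Rps27l, a p53-responsive relative of a ribosomal protein, by 0.40 ± 0.10.

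Calls of respiratory chain genes encoded in the nucleus were 5 of 36 for complex I and 8 of 34 for complexes III to V, all higher, with medians of 0.13 and 0.13. These shares were 13.9% and 23.5%, where 10.5% of all genes tested were called higher. The complex I subunit Ndufa2 rose by 0.33 ± 0.093 and the ATP synthase subunit Atp5k by 0.35 ± 0.12. Of the 13 genes encoded by the mitochondrion 1 was called, mt-Atp8 (0.31 ± 0.097), and the list median was -0.020. Cholesterol synthesis went the other way, with 8 of 22 lower, 0 higher and a median of -0.11. Dhcr7, the enzyme of the last step, lay from 63.4 to 76.5 CPM in Ctrl (median 70.1) and from 53.1 to 65.04 in Both_0.3Cyp (median 61.7). Of its exposed libraries 9 were below every Ctrl library, and the groups were apart within both batches. It fell with a log2 fold change of -0.21 ± 0.043 and Hmgcs1, an early enzyme of the pathway, with -0.28 ± 0.071 (edgeR quasi-likelihood adjusted p = 0.00505 and 0.00716).

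Some genes of growing axons fell. Of the axon guidance genes 9 of 46 fell (19.6%, where 11.8% of all genes tested were called lower), with a list median of -0.16. Those that fell included the netrin receptor Unc5c (-0.62 ± 0.15) and the adhesion molecule L1cam (-0.41 ± 0.12). On the list of neuronal tubulins and microtubule proteins 10 of 27 fell (median -0.15), among them Mapt (-0.29 ± 0.085), Map2 (-0.22 ± 0.065) and the collapsin response mediator Dpysl2 (-0.29 ± 0.073). The clustered protocadherins, surface proteins that give neurons an identity, fell in 26 of 57 members with 0 higher (median -0.29), and 57 of 57 had a negative value. Their isoforms share 3′ exons and near-identical stretches, so counts may be split among them, and Pcdhgc5 (-0.62 ± 0.14) had the lowest p.

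Lists for autism and stress, both named in the series title, were measured as well. Among chromatin and transcription regulators linked to autism 3 of 32 fell (9.38%, where 11.8% of all genes tested were called lower) and 0 rose (median -0.099). The members that fell included Foxp1 and Asxl3 (-0.29). In the glucocorticoid and stress list 5 of 18 fell and 1 rose (median -0.23): the mineralocorticoid receptor Nr3c2 fell with a log2 fold change of -0.59 ± 0.18, the clock gene Per1 with -0.32 ± 0.075, the receptor of corticotropin-releasing hormone Crhr1 with -0.32 ± 0.12 and the kinase Sgk1 with -0.26 ± 0.090, and the receptor cochaperone Fkbp4 rose by 0.14 ± 0.049.

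Lists that bear on an insecticide or on a parental exposure were measured too, beside a share of 22.3% called over all genes tested. Of 24 genes of xenobiotic sensing and metabolism the glutathione transferase Gstm7 rose (0.25) and the dioxin receptor Ahr fell (-0.52), with a list median of 0.015. Of 23 imprinted genes Mest rose (0.33), and Zim1 (-0.51) and Impact (-0.21) fell. On the list of the DNA methylation machinery 4 of 15 rose and 2 fell, with Uhrf1, which recruits the maintenance methyltransferase in S phase, at 0.36 ± 0.13 and the demethylating enzyme Tet1 at -0.24 ± 0.081. Among heat shock proteins 2 of 21 rose and 2 fell, the largest value being that of Hspa1a (-0.63), whose near-identical copy Hspa1b makes its count uncertain; without Ctrl replicate 3 it was -0.40, adjusted p = 0.169 (edgeR). A list of genes lowered in several exposed groups of this series had 13 of 14 members lower (median -0.90), but it was drawn from these same samples and is not independent evidence of a direction.

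By p-value the leading genes were a mixed group. Small changes, such as that of Arfgap2 (0.17), stood beside larger ones, such as that of Frmpd4 (-0.93). Smox, which oxidises the polyamine spermine, lay from 32.8 to 45.3 CPM in Ctrl (median 38.8) and from 42.04 to 53.95 in Both_0.3Cyp (median 47.7). The groups did not overlap within either batch. It rose by 0.26 ± 0.048 (edgeR quasi-likelihood adjusted p = 0.00264). Anapc15, a subunit of the anaphase-promoting complex, lay from 19.3 to 24.8 CPM in Ctrl (median 22.5) and from 25.1 to 32.5 in Both_0.3Cyp (median 26.4), and it is 1 of the 4 genes whose groups did not overlap at all. The others, named after their values were seen, were lower: Lrrc55, an auxiliary subunit of BK potassium channels (-0.31), Map3k12, a kinase of axon injury signalling (-0.14), and Elmod1 (-0.20). Lrrc55 lay from 30.3 to 37.5 CPM in Ctrl (median 36.5) and from 24.2 to 29.96 in Both_0.3Cyp (median 28.8). Anapc15 rose by 0.28 ± 0.053, beside the arginine methyltransferase Prmt6 (0.21 ± 0.040), the death-receptor adaptor Fadd (0.38 ± 0.076), the cold-inducible RNA-binding protein Rbm3 (0.44 ± 0.093), Dph3 (0.19), of diphthamide synthesis, Arfgap2 (0.17), Sugp1 (0.16), Oard1 (0.45) and Aif1l (0.32). Lowest in p among genes called lower was Plppr1, a growth-cone membrane protein, which lay from 80.5 to 99.98 CPM in Ctrl (median 87.7) and from 65.8 to 82.9 in Both_0.3Cyp (median 76.4). Exposed libraries were below all Ctrl libraries in 11 of 12 cases. Plppr1 fell with a log2 fold change of -0.22 ± 0.039, the phosphodiesterase Pde4a with -0.34 ± 0.063, the clock-related repressor Bhlhe40 with -0.48 ± 0.090, the GTPase regulator Arhgap26 with -0.64 ± 0.13 and the sodium-calcium-potassium exchanger Slc24a2 with -0.76 ± 0.16. Also among these were Fchsd2 (-0.20), Camta2 (-0.29) and Mfap3l (-0.61).

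**Figure D3:**
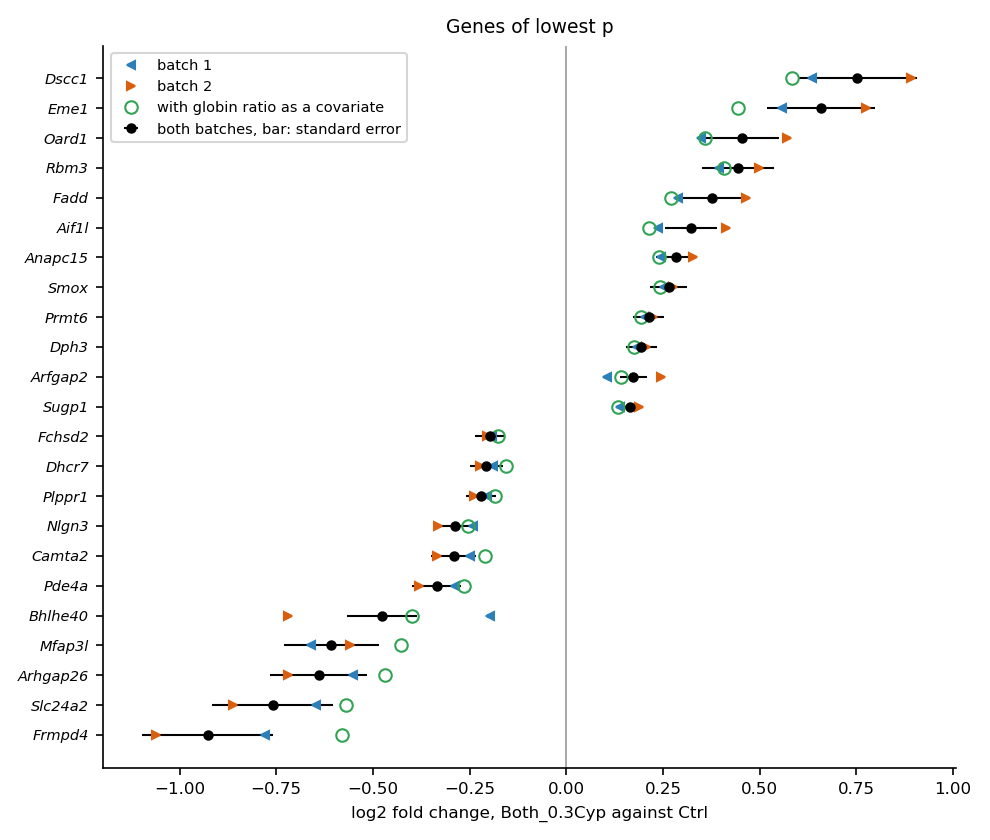
Log2 fold change of 23 of the 24 genes of lowest p, 12 in each direction, (black points, bars are standard errors, n = 12 against 12), with the values within batch 1, within batch 2 and with the globin ratio as a covariate. All 23 keep their side of 0 in each of these, and Bhlhe40 has the widest gap between batches, -0.20 in batch 1 and -0.72 in batch 2.

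The effect was measured separately in each batch and sex. Within batch 1 0 genes were called by edgeR quasi-likelihood (1944 at an unadjusted p under 0.05; smallest adjusted p = 0.350), and within batch 2 1564 were called (10.9%; 4324 unadjusted). Of the 3202 called genes 3196 had the same sign in both batches (99.8%, against 74.2% of all genes tested), and for 2515 the change was larger in batch 2; the median absolute log2 fold change was 0.20 in batch 1 and 0.28 in batch 2. The difference between batches was called for 0 genes by the same test (635 unadjusted), and that between the sexes for 0 (169 unadjusted), and all 3202 had the same sign in both sexes. In single genes the groups had no overlap within batch 1 for 270 (1.88% of genes tested) and within batch 2 for 1565 (10.9%). Ctrl libraries differed in how often they lay within the exposed range, and replicates 6 and 5 of batch 1 did so most often. Among genes called lower, replicate 6 lay within the exposed range for 96.0% and replicate 5 for 86.0%, and among those called higher for 95.7% and 80.1%, while for the other 10 Ctrl libraries the share ran from 11.5% to 64.9% for genes called lower and from 12.1% to 76.2% for those called higher.

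Single libraries decided the call of some genes. Of 164 called genes named in the text 119 kept their call without any 1 of the 24 libraries, and 45 lost it without at least 1 (edgeR quasi-likelihood; highest adjusted p = 0.827, for Aldh1a1 without Ctrl replicate 3). The libraries without which most of these calls were lost were Ctrl replicate 3 (32), Ctrl replicate 7 (28), exposed replicate 7 (27) and Ctrl replicate 8 (23). Calls lost on leaving out each of 10 or more libraries singly were those of Slc1a2, Crhr1, Kitl, Impact, Tle4, Foxp2, Rspo2, Hist2h2aa1 and Hba-a2, and of Alb, Aldh1a1 and Sap25 among genes of large change at low level, and those lost for 1 to 9 libraries were of Uhrf1, Zim1, Dll3, Slc12a5, Sgk1, Gfap, Fos, Edn1, Shank1, Shank3, Pdgfra, Fkbp4, Eomes, Elmod1, Asxl3, Olig1, Dmrta2, Atp5k, Ier5, Hmga2, Hist3h2ba, Foxb1, Scn1a, Nrxn3, Insm1, Sox2 and Hspa1a, and of Avp, Hcrtr1, Ibsp, Pla2g3, Htr5b and Ifit3 at low level. Without Ctrl replicate 12 the values of Fos (-0.59, adjusted p = 0.0530) and Edn1 (-0.53, adjusted p = 0.117) were also no longer called, and without Ctrl replicate 3 that of Slc12a5 (-0.41, adjusted p = 0.0924).

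**Figure D4:**
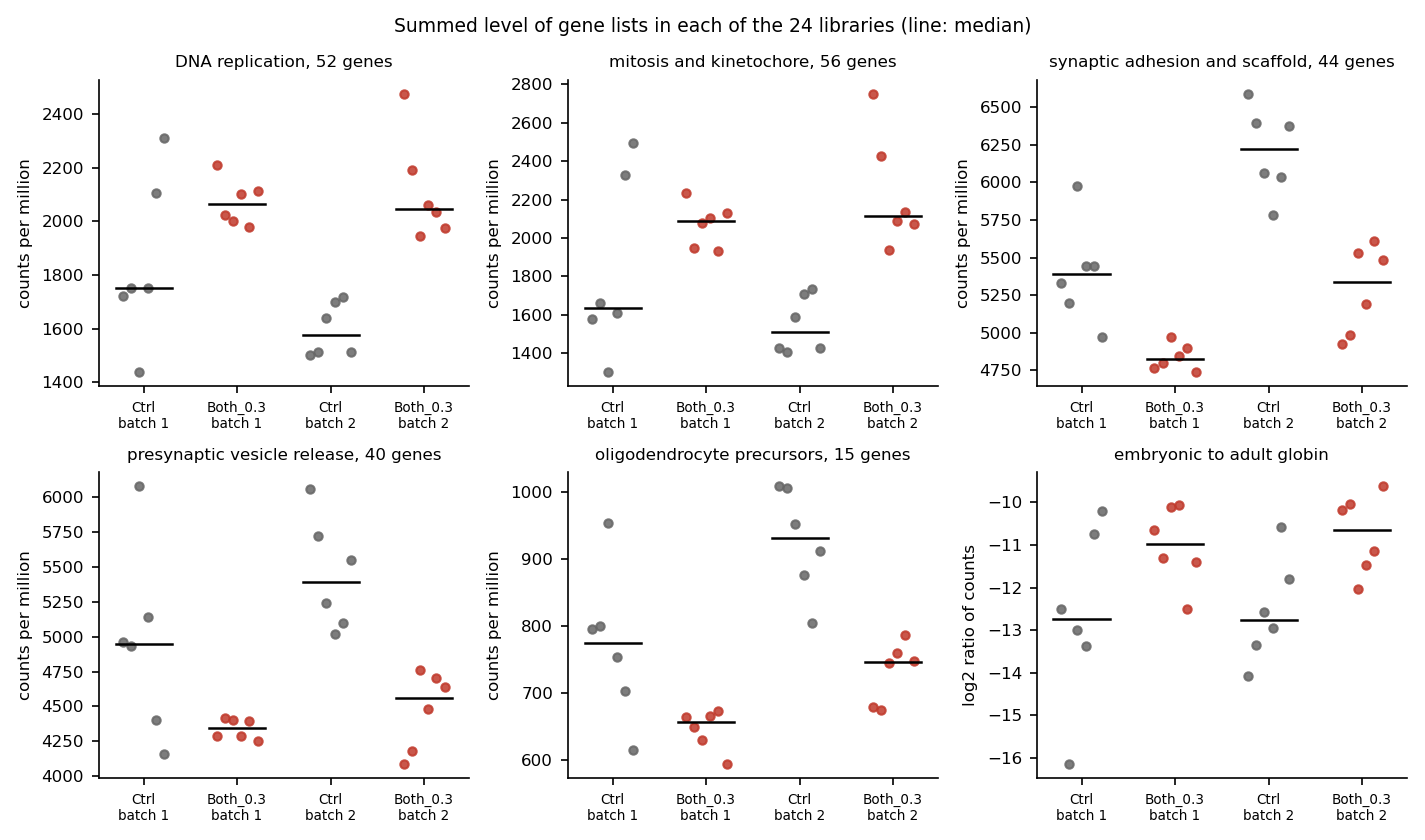
Summed CPM of 5 gene lists, and the log2 ratio of embryonic to adult globin counts, in each of the 24 libraries by batch, with Ctrl in grey, Both_0.3Cyp in red and the median as a line. In batch 2 the groups separate for all 5 lists; in batch 1 Ctrl replicates 5 and 6, the last 2 grey points, have 2107 and 2310 CPM of replication genes, inside or above the exposed range.

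A measure of red blood cells also differed between the groups. The log2 ratio of embryonic globin counts (Hbb-y and Hba-x, made by the first wave of red cells) to adult globin counts ran from -16.2 to -10.2 in Ctrl (median -12.8) and from -12.5 to -9.62 in Both_0.3Cyp (median -10.9). All 12 exposed libraries were above the Ctrl median, and Ctrl replicates 1, 5, 6, 11 and 12 reached the exposed range. The ratio rests on few reads, 0 to 26 embryonic globin counts per Ctrl library and 5 to 56 per exposed library, and neither Hbb-y (1.77 ± 0.96; edgeR quasi-likelihood adjusted p = 0.165) nor Hba-x (1.45 ± 0.72; adjusted p = 0.128) was itself called. Within groups of the whole series 6432 genes (44.9%) were associated with the ratio at an adjusted p under 0.05. With the ratio as a covariate 10 genes were called between Both_0.3Cyp and Ctrl (0.0697%; edgeR quasi-likelihood, 3350 at an unadjusted p under 0.05), and all 3202 genes kept their sign, with a median absolute log2 fold change of 0.17 where it was 0.25 without it. The count differed between sets of libraries: fitted on the 24 libraries of these groups alone, where 4807 genes were called without the covariate, it left 2538, and with libraries rich in embryonic globin left out it gave 651 (edgeR quasi-likelihood; both settings with the covariate were chosen after the data were seen, and the cause of the difference was not tested).

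Gene lists differed in how much of the change remained with that covariate. List medians went from 0.39 to 0.19 for mitosis, from 0.29 to 0.14 for replication, from -0.42 to -0.20 for oligodendrocyte precursors, from -0.28 to -0.066 for striatal genes and from -0.27 to -0.13 for presynaptic genes. By contrast they went from 0.19 to 0.15 for cytosolic ribosomal proteins, from 0.16 to 0.14 for the proteasome, from 0.13 to 0.13 for complexes III to V and from -0.16 to -0.15 for axon guidance. In the fit of all 76 libraries each of the lists given here had 0 members called with the covariate (edgeR quasi-likelihood). Fitted on these groups alone with the covariate, 39 of 81 cytosolic ribosomal, 23 of 31 proteasome and 15 of 40 presynaptic genes were called. So were 15 of 52 replication, 15 of 56 mitosis and 4 of 15 oligodendrocyte precursor genes. With libraries rich in embryonic globin left out instead, the counts were 0, 0, 6, 6, 4 and 2 in the same order. Among the 10 genes called with the covariate were Smox, Anapc15, Prmt6, Plppr1, Bhlhe40, Nlgn3 and Fchsd2 from the genes of lowest p, and the RNA-binding protein genes Cirbp (0.30 without it, 0.34 with it) and Pspc1 (0.12 and 0.15), both of which had larger values with the covariate. Cirbp, like Rbm3, is induced by cold; it lay from 106 to 144 CPM in Ctrl (median 131) and from 138 to 176 in Both_0.3Cyp (median 155), and Rbm3 went from 0.44 to 0.41 (edgeR quasi-likelihood adjusted p = 0.0505 with the covariate). Cirbp and Pspc1 were named because they are among the 10.

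**Figure D5:**
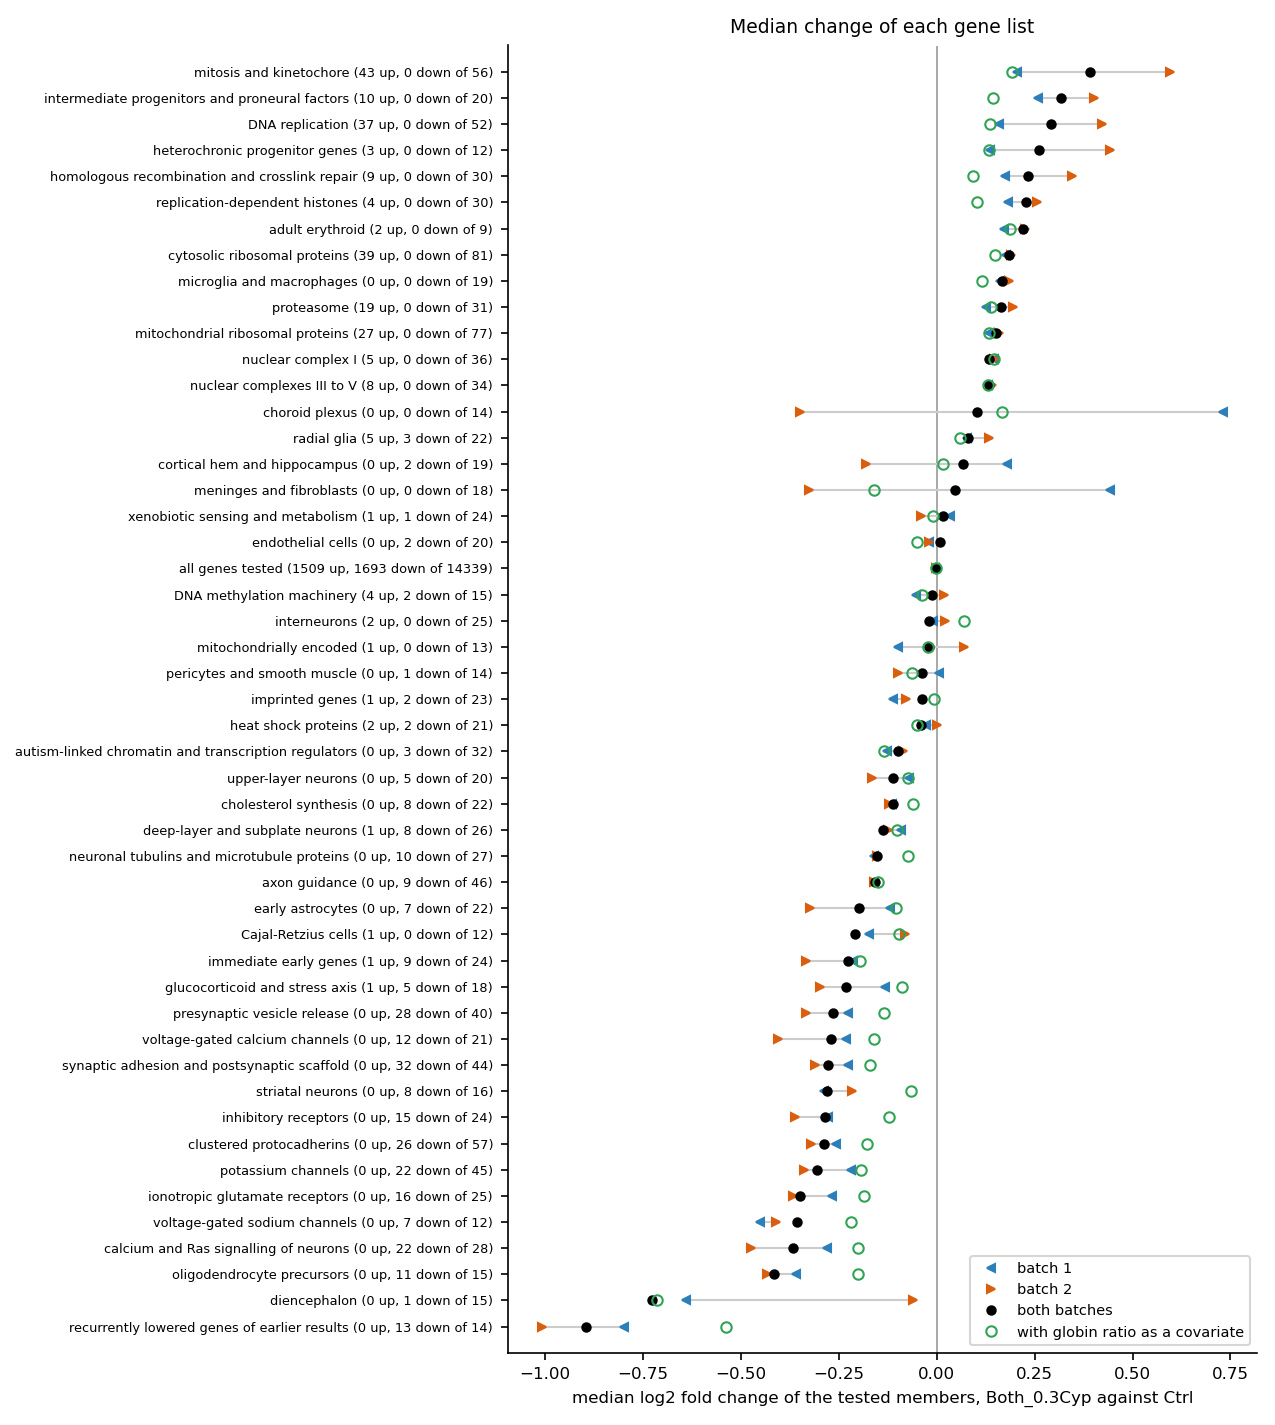
Median log2 fold change of the tested members of 48 gene lists and of all genes tested (horizontal axis), for both batches together, for each batch and with the globin ratio as a covariate; the counts give members called higher (up) and lower (down) of those tested. The embryonic erythroid list (2 tested, median 1.61) is not drawn. Of the lists drawn, mitosis, intermediate progenitors and replication lie furthest to the right. Recurrently lowered genes (-0.90) and the diencephalon list (-0.73) lie furthest to the left, followed by oligodendrocyte precursors, calcium signalling and sodium channels. Ribosomal and proteasome lists have all 4 values close together.

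Maternal_0.3Cyp and Paternal_0.3Cyp, where 1 parent was exposed at the same labelled dose, and Both_10Cyp, where both were exposed at the dose labelled 10, were compared with Both_0.3Cyp directly, without a Ctrl library in the contrast. Against Maternal_0.3Cyp 0 genes were called by edgeR quasi-likelihood (276 at an unadjusted p under 0.05), against Paternal_0.3Cyp 2 (0.0139%) and against Both_10Cyp 1 (0.00697%), and a p above the threshold does not show that the groups are alike. Irx1 and Irx2, patterning genes of the diencephalon, were lower than in Paternal_0.3Cyp by log2 values of -2.41 ± 0.46 and -3.72 ± 0.72 (SE). In Paternal_0.3Cyp replicate 9 had 34.7 CPM of Irx1 and 24.4 of Irx2, where the next library had 6.10 and 4.39, and Both_0.3Cyp ran from 0.390 to 1.43 and from 0 to 0.665. Without the libraries high in diencephalon markers 0 genes were called in that comparison (edgeR quasi-likelihood; 524 at an unadjusted p under 0.05; this setting was chosen after the data were seen). mt-Nd4l, which encodes a complex I subunit in the mitochondrial genome, was lower than in Both_10Cyp by -0.71 ± 0.14 (SE), with 45.9 to 80.8 CPM in Both_0.3Cyp, 47.3 to 78.8 in Ctrl and 72.6 to 129.7 in Both_10Cyp; libraries of Both_10Cyp were deeper, at 21154587 to 33969582 counts.

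Set against the same Ctrl libraries, which the comparisons share, list medians of the other groups can be placed beside those of Both_0.3Cyp. For replication they were 0.29 in Both_0.3Cyp, 0.29 in Maternal_0.3Cyp, 0.34 in Paternal_0.3Cyp and 0.22 in Both_10Cyp, and for mitosis 0.39, 0.40 in Maternal_0.3Cyp, 0.41 in Paternal_0.3Cyp and 0.32 in Both_10Cyp. For synaptic adhesion and scaffold they were -0.28, -0.30 in Maternal_0.3Cyp, -0.25 in Paternal_0.3Cyp and -0.18 in Both_10Cyp, and for oligodendrocyte precursors -0.42, -0.38 in Maternal_0.3Cyp, -0.38 in Paternal_0.3Cyp and -0.35 in Both_10Cyp. In the direct comparisons, which use no Ctrl library, the same 4 lists had medians between -0.074 and 0.069, and these 4 were chosen for the calls against Ctrl. Medians of other lists lay further from 0: against Maternal_0.3Cyp -0.43 for meninges and 0.43 for embryonic erythroid genes, against Paternal_0.3Cyp -2.06 for embryonic erythroid genes (2 tested) and -1.55 for the diencephalon list, and against Both_10Cyp -0.95 for embryonic erythroid genes and -0.43 for the choroid plexus. Smox had 0.26 in Both_0.3Cyp, 0.20 in Maternal_0.3Cyp, 0.20 in Paternal_0.3Cyp and 0.17 in Both_10Cyp.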

How the data were processed

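RNA-seq libraries of embryonic dorsal forebrain were compared by their labelled group, batch and sex. The authors deposited 1 table of estimated counts per gene, given as whole numbers; per the submitters' processing notes the tools were Trim Galore 0.5.0 and Salmon 1.10.1, and the build was mm10. The annotation release, the summing to genes and the rounding are not given in the sources used here. Each of the 14823 genes in the table has at least 10 counts in at least 3 libraries. Symbols and transcript lengths came from GENCODE for GRCm38 and were found for 14810 genes; promoters came from RefSeq for GRCm38.p6, with a sequence for 11163 of 14329 tested symbols. Depth was 17773173 to 19861390 counts in the 24 libraries. No pair of libraries agreed within sampling noise (smallest chi-square per gene 3.96).

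Counts were scaled by TMM and fitted in edgeR 4.0.16 (R 4.3.3, robust quasi-likelihood) across all 76 libraries and 7 groups, with terms for group, batch and sex. The edgeR filter on low counts removed 484 genes, leaving 14339. Tests were 2-sided, p-values were adjusted over all genes tested (Benjamini-Hochberg), and a gene was called at an adjusted p under 0.05. The fit was tested on simulated data with known changes. Log2 levels used a pseudocount of 0.5. Alternatives used DESeq2 1.42.0, limma 3.58.1 and sva 3.50.0. Within-batch and within-sex values came from interaction fits.

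The groups compared and the 49 lists (1337 genes, of which 1295 were tested) were chosen with earlier results of these data known. Named were the 12 genes of lowest p in each direction, with a mean of at least 1 CPM and the same sign in both batches; up to 4 members of lowest p of each list and any member called; and for each other comparison up to 5 called genes of lowest p. A few genes that the rule names are not reported here. Predicted and clone-named genes were not named (36 among genes called higher and 28 among those called lower).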

Additional observations from a re-analysis of the deposited data

How the results depend on the processing

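The count of 3202 called genes moved to 5553 with limma, to 4807 with only these groups fitted, to 1323 in batch 2 alone and to 0 in batch 1 alone (edgeR quasi-likelihood, 2651 at an unadjusted p under 0.05). It moved to 555 with 2 surrogate variables, to 10 with the globin covariate and to 651 with that covariate when libraries rich in embryonic globin were left out, and the cause was not tested. It stayed within 1.5 times with DESeq2 (3460), no filter, other size factors, no batch or sex term, offsets for GC and length, thinned counts, or leaving out libraries rich in embryonic globin or in diencephalon markers. A similar count can hold other genes: of the 3202 called genes 3183 were called with DESeq2 and 1953 with the offsets. Leaving out each library in turn gave 2042 to 4013, and the count moved by over 1.5 times without Ctrl replicate 3 (2042) or 7 (2089).

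Replicate numbers did not pair the samples: correlations of deviations ran from -0.239 to 0.191 over 12 pairs, 3 of them over 0.1, and 1 library matched its own number best. With the replicate number as a block 3714 genes were called. Against Paternal_0.3Cyp, where 2 were called, the block gave 0 (589 unadjusted), only these groups 0 (249 unadjusted), no filter 4, and leaving out the libraries high in diencephalon markers 0 (524 unadjusted), all by edgeR. Against Both_10Cyp, where 1 was called, the block gave 3, only these groups 2, and leaving out libraries rich in embryonic globin 0 (edgeR; 1746 unadjusted).

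List medians were recomputed 1958 times. The sign changed in 78 cases, on 14 of 49 lists, and 7 of these were of medians larger than 1 SD between exposed libraries, a limit set after the values were seen. These were upper-layer neurons (0.0076) and autism-linked regulators (0.042) with GC and length offsets, Cajal-Retzius cells with 2 surrogate variables (0.015) and without Ctrl replicate 3 (0.013; -0.25 to 0.013 over all single libraries), and the diencephalon list with 2 surrogate variables (0.14), without its high libraries (0.062) and without Ctrl replicate 3 (0.10; -0.82 to 0.10 over all single libraries). Of the named genes Aldh1a1 changed sign, to 0.085 with 2 surrogate variables. The settings that leave out libraries in the comparisons between exposed groups, and those that join the globin covariate with other libraries, were chosen after the data were seen.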

Other observations

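The genes of largest change were mostly at low level, and they were picked after their values were seen. An absolute log2 fold change of 1 was reached by 16 called genes, 5 higher and 11 lower. Avp, the precursor of vasopressin, lay from 0 to 10.2 CPM in Ctrl (median 0.235) and from 0 to 1.83 in Both_0.3Cyp (median 0.0266), with its highest value in Ctrl replicate 3, and had -3.41 ± 0.89 (SE; edgeR quasi-likelihood adjusted p = 0.00860). The orexin receptor Hcrtr1 (-1.61) and the retinaldehyde dehydrogenase Aldh1a1 (-1.80) also had their highest Ctrl value in that library, which is high in diencephalon markers. Without Ctrl replicate 3 Avp (-2.32, adjusted p = 0.0563), Hcrtr1 (-1.08, adjusted p = 0.144), Aldh1a1 (-0.22, adjusted p = 0.827) and the phospholipase Pla2g3 (-0.86, adjusted p = 0.0569, -1.05 with it) were no longer called (edgeR). Ibsp, a bone matrix protein, had -1.49 ± 0.45 although its exposed median was above that of Ctrl (0.348 CPM in Ctrl and 0.434 in Both_0.3Cyp), with 7.10 CPM in Ctrl replicate 7. Without that library Ibsp was -0.66, adjusted p = 0.236 (edgeR). The serotonin receptor Htr5b (-1.19), the interferon-induced gene Ifit3 (-1.22) and Crybg2 (-1.26) were the other lower genes besides Foxb1, Aqp4 and Egr4. Alb, the serum albumin made by liver, lay from 0 to 0.874 CPM in Ctrl (median 0) and from 0 to 6.73 in Both_0.3Cyp (median 0.0552), and its log2 fold change of 3.23 ± 1.18 was lost as a call without 12 of the 24 libraries taken singly (2.52, adjusted p = 0.131 without exposed replicate 8, edgeR). Prn (3.19), Sap25 (1.97) and Slc35g3 (1.03) had medians of at most 0.388 CPM in either group.

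Expression was more even among exposed libraries than among Ctrl libraries. The median over genes of the SD of log2 CPM was 0.161 in Ctrl and 0.124 in Both_0.3Cyp, and 71.4% of genes tested had the larger SD in Ctrl. The share was 80.0% among genes called higher and 77.3% among those called lower, and no test was made of it.

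Genes called lower were longer than those called higher. Gene spans had a median of 63.5 kb for genes called lower, 13.2 kb for genes called higher and 25.5 kb for all genes tested, and the longest transcript had medians of 4932, 2467 and 3485 bases. Transcript GC content was 48.5% for genes called lower, 50.04% for genes called higher and 49.9% for all. With offsets for GC content and length 2451 genes were called, 1285 higher and 1166 lower (edgeR quasi-likelihood). Of the 3202 genes called without the offsets, 1953 were among them. The median absolute log2 fold change of those 3202 was 0.19 with the offsets and 0.25 without.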
